A study of Camelus dromedarius with 30 samples.

Results

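KCNJ8 and SLC12A7 are a pair of genes that move potassium across cell membranes, and their RNA was followed in the kidney of the dromedary camel through water deprivation and rehydration. They were taken as 2 of the 22444 rows of the count table, KCNJ8 by its position and SLC12A7 by its identifier, ENSCDRG00005007851. Both were among the 15376 genes that had enough reads to be tested. RNA from the renal cortex and the renal medulla of 15 male camels aged 4 to 5 years gave 30 libraries in 6 groups of 5. Control camels drank freely, dehydrated camels were kept without water for 20 days, and rehydrated camels had water again for 3 days after the same 20 days. All animals had free access to food. By the labels each library of a group came from a different camel and both tissues of every camel were sequenced, although which rehydrated cortex and medulla libraries belong together is in doubt.

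KCNJ8 encodes Kir6.1, the pore-forming subunit of an ATP-sensitive potassium channel. The pore assembles with a sulphonylurea receptor, the subunit encoded by ABCC8 or ABCC9, and opens when the ATP supply of the cell falls. The channel is best known from vascular smooth muscle and pericytes, where its opening hyperpolarises the cell and relaxes the vessel. SLC12A7 encodes KCC4, an electroneutral cotransporter that carries potassium and chloride out of the cell together. In the kidney KCC4 is known from the basolateral membrane of tubule cells, including acid-secreting intercalated cells.

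In the CamDro2 assembly KCNJ8 (ENSCDRG00005018658) lies on the minus strand of chromosome 34, from 14042219 to 14049230, and its 3 exon blocks add up to 1960 bases. SLC12A7 lies on the plus strand of chromosome 3, from 119160874 to 119186588, with 24 exon blocks and 5995 exonic bases. No annotated neighbour overlapped either gene.

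Read depth and the spread among camels both bear on the precision. Libraries held 12634346 to 20005136 counted read pairs, and the medulla libraries were the deeper ones on the whole. KCNJ8 had 41 to 254 counts in a cortex library and 387 to 1131 in a medulla library, so its cortical values carried the larger counting error. SLC12A7 had 284 to 928 counts in the cortex and 513 to 1042 in the medulla. The values below are CPM (counts scaled to a common library size) scaled with the trimmed mean of M-values (TMM), a factor that sets libraries of different composition on one scale. This factor was 0.740 to 0.900 in the cortex and 1.05 to 1.31 in the medulla, so comparisons between the tissues depend on it much more than comparisons between conditions within a tissue. The mean RNA integrity number given by the submitters was also lower in the cortex (7.6 to 8.1 across conditions) than in the medulla (8.5 to 8.8), and its part in the tissue differences cannot be told apart from that of the tissue.

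KCNJ8 was the more medullary gene of the pair and rose in both tissues with dehydration, although the medullary call stood at the threshold of the edgeR fit of all libraries. In the cortex of the control camels KCNJ8 stood at 3.91, 4.07, 4.04, 6.63 and 4.73 CPM, which gives 4.68 ± 1.13 CPM (SD, n = 5). The dehydrated cortex held 6.71, 10.0, 14.4, 9.25 and 15.0 CPM, or 11.1 ± 3.53 CPM (SD, n = 5). Every dehydrated cortex therefore lay above every control cortex, but only just, since the lowest dehydrated library (6.71) and the highest control library (6.63) almost met. After rehydration the cortex returned to 7.26, 3.20, 5.17, 5.20 and 5.88 CPM, or 5.34 ± 1.47 CPM (SD, n = 5). The rehydrated libraries overlapped those of the control camels, and 1 of them also reached above the lowest dehydrated library.

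The fitted rise of KCNJ8 in the dehydrated cortex was 2.37-fold, a log2 fold change of 1.25 ± 0.21 (SE, 95% interval 0.82 to 1.67, adjusted p = 0.0012 by edgeR's quasi-likelihood test over all tested genes). In this comparison 2.34% of all tested genes passed the same threshold of 0.05, and 5.53% had groups that did not overlap. From dehydration to rehydration the cortical level fell by 1.05 on the log2 scale (SE 0.20, 95% interval -1.47 to -0.64, adjusted p = 0.0054), a comparison in which 2.15% of tested genes were called. This call was lost when only the cortex libraries were fitted (adjusted p = 0.063) or only the compared groups (adjusted p = 0.10), with a log2 fold change of -1.04 and -1.03. The exact two-sided permutation test of log2 CPM gave p = 0.016 for it. Between rehydrated and control cortex the log2 difference was 0.19 ± 0.21 (SE, 95% interval -0.23 to 0.62, adjusted p = 0.88), and 0.039% of tested genes were called there. KCNJ8 was selected by the study as differentially expressed in these same libraries, so its response to dehydration is a description here and not independent evidence. The study also reported a rise of KCNJ8 with dehydration by quantitative PCR in both tissues, on samples of the same camels. All comparisons with the control camels of a tissue share the same 5 control libraries.

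**Figure D1:**
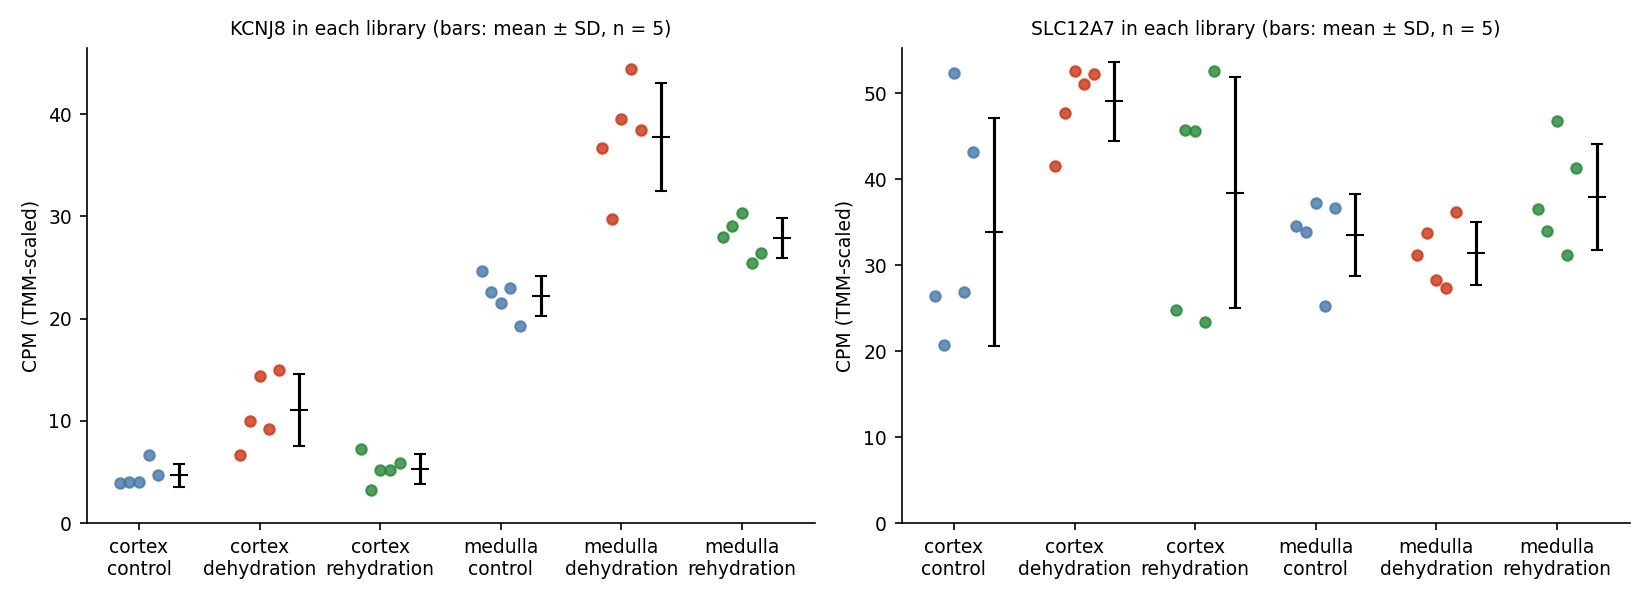
CPM (TMM-scaled, vertical axis from 0) of KCNJ8 on the left and SLC12A7 on the right in each of the 30 libraries, by group (horizontal axis), with the mean ± SD of 5 libraries beside each group. KCNJ8 reached 29.8 to 44.4 CPM in the dehydrated medulla and 6.71 to 15.0 CPM in the dehydrated cortex, while SLC12A7 in the control and rehydrated cortex spread from 20.7 to 52.6 CPM and in the dehydrated cortex only from 41.6 to 52.6 CPM.

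In the medulla KCNJ8 started from a level several times higher. The control medulla held 24.6, 22.6, 21.5, 23.0 and 19.2 CPM, or 22.2 ± 1.99 CPM (SD, n = 5). The dehydrated medulla held 36.7, 29.8, 39.5, 44.4 and 38.5 CPM, or 37.8 ± 5.31 CPM (SD, n = 5). The rehydrated medulla held 28.0, 29.0, 30.4, 25.5 and 26.4 CPM, or 27.9 ± 1.96 CPM (SD, n = 5). Both the dehydrated and the rehydrated libraries lay wholly above the control libraries, whereas the dehydrated and rehydrated groups met at 29.8 and 30.4 CPM.

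The fitted medullary rise with dehydration was 1.70-fold, a log2 fold change of 0.77 ± 0.19 (SE, 95% interval 0.37 to 1.16). Its adjusted p of 0.0497 was the last to pass among the 149 genes called, which were 0.969% of those tested. The groups did not overlap for 3.79% of tested genes. Leaving out 1 library at a time ended the call in 9 of 10 fits (adjusted p from 0.068 to 0.17), and it was kept only without the second dehydrated medulla (adjusted p = 0.047). The log2 fold change stayed between 0.70 and 0.84 in those fits, and the exact two-sided permutation test gave p = 0.0079, the smallest that 5 against 5 libraries allow. The call was also lost with the RNA integrity number as a covariate (log2 fold change 0.71, adjusted p = 0.11) and with no filter on low counts (0.77, adjusted p = 0.063). It passed with DESeq2 (adjusted p = 0.0017), limma-voom (0.0026), the medulla libraries alone (0.0038) and only the groups compared (0.025).

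After rehydration KCNJ8 did not pass the test against either of the other medullary groups. Against dehydration its log2 fold change was -0.44 ± 0.19 (SE, 95% interval -0.84 to -0.04, adjusted p = 0.23), where 1.99% of genes were called. Fitted on the medulla libraries alone the same comparison passed (log2 fold change -0.47, adjusted p = 0.039), and its exact permutation p was 0.016. Against control the log2 fold change was 0.33 ± 0.19 (SE, 95% interval -0.07 to 0.72, adjusted p = 0.52), where 0.221% of genes were called. The groups of that comparison did not overlap, which held for 2.79% of tested genes, and its exact permutation p was 0.0079, unadjusted.

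The rise of KCNJ8 with dehydration was not shown to differ between the tissues. The dehydration response in the medulla minus that in the cortex was -0.48 ± 0.28 on the log2 scale (SE, 95% interval -1.05 to 0.09, adjusted p = 0.75), in a test that called 0.039% of genes. The rehydration response is rehydrated against control camels, and for it the difference was 0.13 ± 0.28 (SE, 95% interval -0.45 to 0.72, adjusted p = 1.00). The change from dehydration to rehydration was not tested for a difference between the tissues. No gene was called there by edgeR (0%), against 2 by DESeq2, while 757 genes had an unadjusted p under 0.05.

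**Figure D2:**
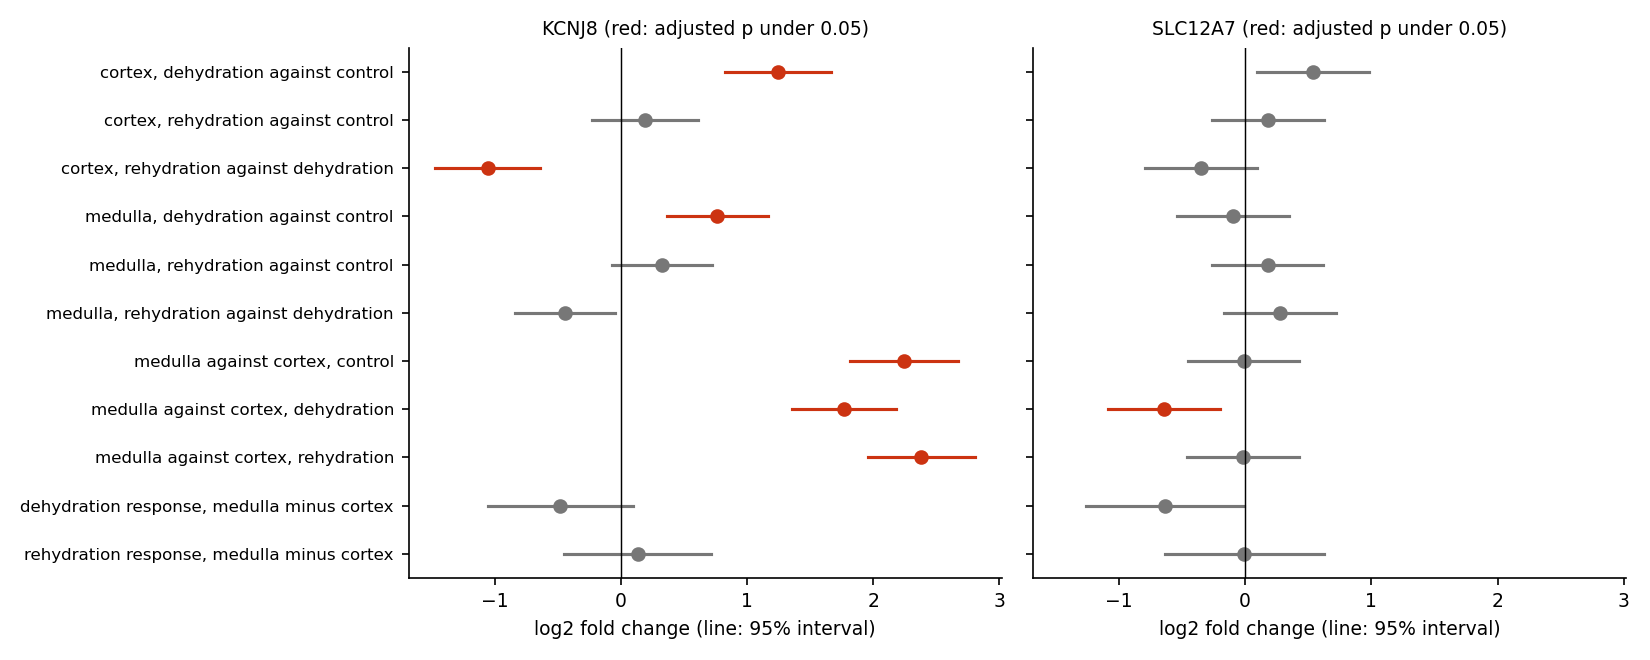
Log2 fold changes (horizontal axis, points) with 95% intervals (lines) of KCNJ8 and SLC12A7 in the 11 comparisons named on the vertical axis, in red where the adjusted p was under 0.05. KCNJ8 passed in 6 comparisons, with 2.25, 1.77 and 2.38 for medulla against cortex, and SLC12A7 passed in 1, medulla against cortex in dehydrated camels, at -0.65.

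Between the tissues KCNJ8 showed its widest differences. Medulla exceeded cortex by a log2 fold change of 2.25 ± 0.21 in control camels, 1.77 ± 0.20 in dehydrated camels and 2.38 ± 0.21 in rehydrated camels (SE, adjusted p = 3.0e-09, 6.6e-08 and 9.7e-10). This corresponded to 4.74-fold, 3.40-fold and 5.21-fold. The tissues did not overlap in any of the 3 conditions. Most genes differ between cortex and medulla, however: the same test called 59.5%, 63.6% and 58.5% of tested genes, and 42.9%, 54.8% and 30.3% had tissues that did not overlap. Within single camels, as the labels pair them, the medulla-to-cortex ratio of KCNJ8 ran from 3.48 to 6.29 in controls, with a median of 5.33. It ran from 2.57 to 5.47 in dehydrated camels, with a median of 2.98, and from 3.86 to 9.07 in rehydrated camels, with a median of 4.90. The medulla was higher in 15 of 15 camels. Since the tissues did not overlap, every pairing of libraries gives this direction, so the count adds no support within camels. Second names in the labels pair the rehydrated libraries otherwise, and by those names KCNJ8 was higher in the medulla in 4 of 4 rehydrated camels, with ratios from 4.00 to 9.50. In bulk tissue more cells of a type and more RNA per cell cannot be told apart, here and in every comparison below.

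SLC12A7 was less regular. It passed no comparison between conditions in either tissue, and in the cortex the control and rehydrated camels differed widely among themselves. Control cortex held 26.4, 20.7, 52.3, 26.9 and 43.1 CPM, or 33.9 ± 13.3 CPM (SD, n = 5). Dehydrated cortex held 41.6, 47.7, 52.6, 51.0 and 52.2 CPM, or 49.0 ± 4.59 CPM (SD, n = 5). Rehydrated cortex held 24.8, 45.7, 45.6, 23.3 and 52.6 CPM, or 38.4 ± 13.4 CPM (SD, n = 5). All 5 dehydrated libraries were at the upper end of the range, and 3 control and 2 rehydrated libraries lay below 27 CPM with the others among the dehydrated ones. The coefficient of variation was 39.2% in the control cortex, 34.9% in the rehydrated cortex and 9.36% in the dehydrated cortex; these spreads were not tested against each other.

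The log2 fold change of SLC12A7 in the dehydrated against the control cortex was 0.54 ± 0.22 (SE, 95% interval 0.09 to 0.98), with an unadjusted p of 0.020 and an adjusted p of 0.22. The exact two-sided permutation test gave p = 0.079. Rehydrated against control cortex differed by 0.18 ± 0.22 (SE, 95% interval -0.26 to 0.63, adjusted p = 0.90), and rehydrated against dehydrated cortex by -0.35 ± 0.22 (SE, 95% interval -0.80 to 0.09, adjusted p = 0.47).

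In the medulla SLC12A7 varied less. Control medulla held 34.6, 33.9, 37.2, 25.3 and 36.6 CPM, or 33.5 ± 4.80 CPM (SD, n = 5). Dehydrated medulla held 31.2, 33.7, 28.3, 27.4 and 36.2 CPM, or 31.4 ± 3.68 CPM (SD, n = 5). Rehydrated medulla held 36.5, 33.9, 46.8, 31.2 and 41.4 CPM, or 37.9 ± 6.20 CPM (SD, n = 5). The 3 groups overlapped. The log2 fold change was -0.10 ± 0.22 for dehydration against control (SE, 95% interval -0.54 to 0.35, adjusted p = 0.93). It was 0.18 ± 0.22 for rehydration against control (95% interval -0.26 to 0.62, adjusted p = 0.84) and 0.27 ± 0.22 for rehydration against dehydration (95% interval -0.17 to 0.72, adjusted p = 0.57).

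In dehydrated camels SLC12A7 was lower in the medulla than in the cortex, with a log2 fold change of -0.65 ± 0.22 (SE, 95% interval -1.09 to -0.20, adjusted p = 0.011) and no overlap. In this comparison 63.6% of all tested genes were called and 54.8% had tissues that did not overlap. All 5 dehydrated camels showed this direction, with medulla-to-cortex ratios from 0.537 to 0.750, as any pairing must where the tissues do not overlap. This difference rested on the scaling between the tissues. With library sizes alone, in place of TMM, all genes shifted by 0.52 to 0.56 on the log2 scale towards the medulla and the difference was -0.09 (adjusted p = 0.68). It was -0.59 (adjusted p = 0.11) with the RNA integrity number as a covariate. In control and rehydrated camels the fitted tissue difference was -0.01 ± 0.22 and -0.02 ± 0.22 (SE, adjusted p = 0.96 and 0.95), and with library sizes alone it was 0.53 and 0.55, higher in the medulla (adjusted p = 0.019 and 0.015). No direction between the tissues is therefore given for SLC12A7. The KCNJ8 tissue differences held under library sizes alone, at 2.78, 2.31 and 2.91.

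Whether SLC12A7 responded differently in the tissues does not depend on that scaling, since the shift cancels. The dehydration response in the medulla minus that in the cortex was -0.63 ± 0.31 (SE, 95% interval -1.26 to -0.01), with an unadjusted p of 0.048 and an adjusted p of 0.69. With library sizes alone it was -0.62 (adjusted p = 0.61). For the rehydration response, again against control camels, it was -0.01 ± 0.31 (SE, 95% interval -0.63 to 0.62, adjusted p = 1.00).

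**Figure D3:**
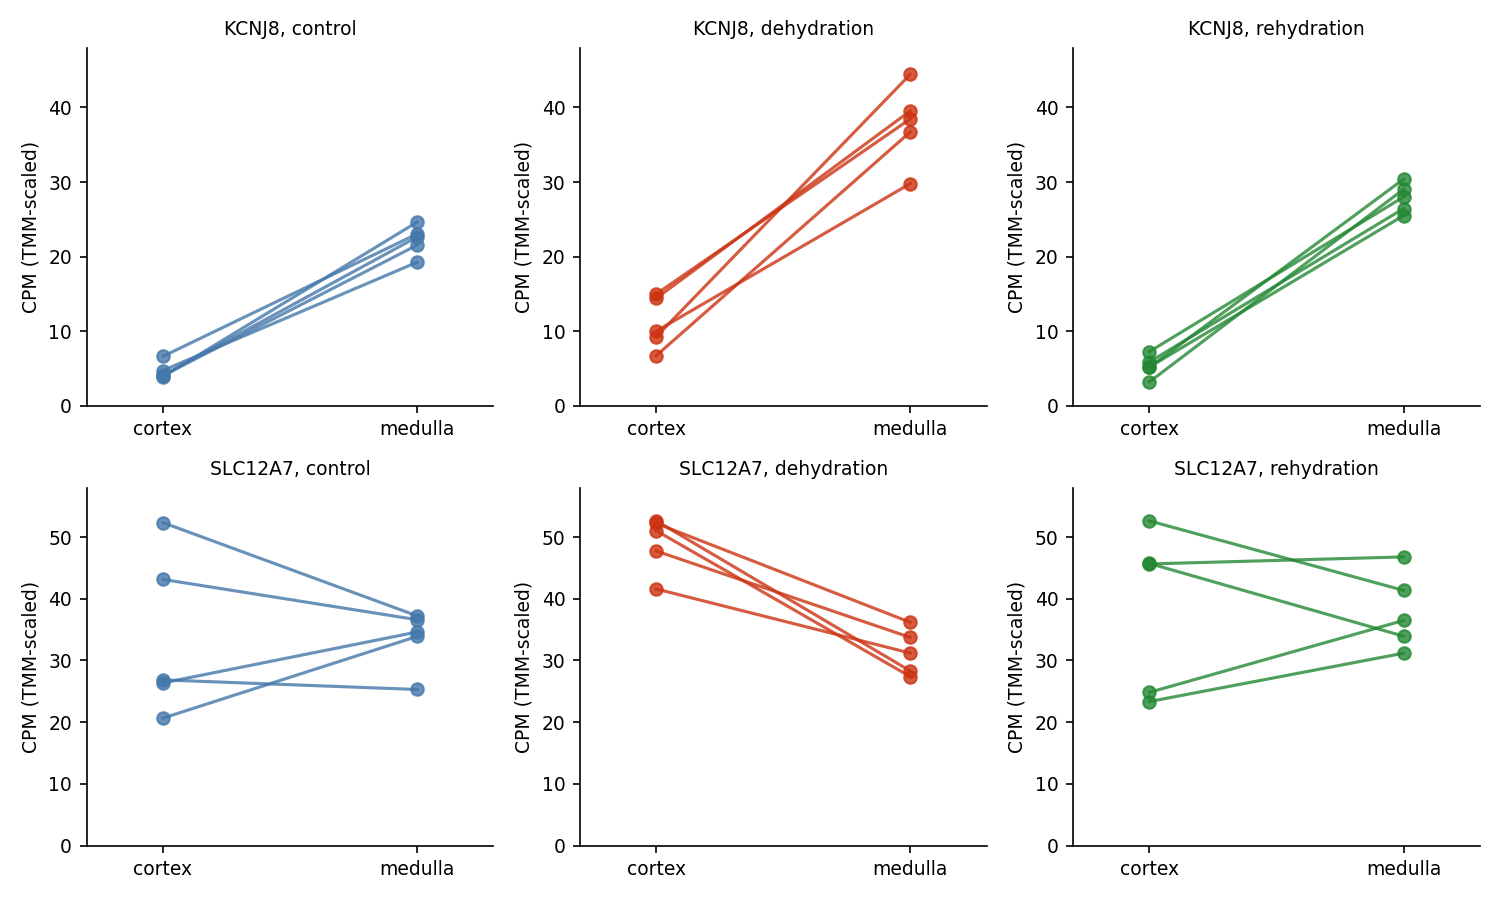
CPM (TMM-scaled, vertical axes from 0) of KCNJ8 in the upper row and SLC12A7 in the lower row in the cortex and medulla library of each camel, joined by a line as the labels pair them, with 1 panel for each condition. KCNJ8 was higher in the medulla in 15 of 15 camels, whereas SLC12A7 was lower in the medulla in 5 of 5 dehydrated camels and higher in 2 of 5 control and 3 of 5 rehydrated camels. For KCNJ8, and for SLC12A7 in dehydrated camels, the tissues did not overlap, so any pairing gives the same direction.

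Per exon length, the scale on which genes can be compared, KCNJ8 ranked below SLC12A7 in the cortex and above it in the medulla. In control camels KCNJ8 stood at 2.39 ± 0.58 CPM per kb in the cortex and 11.3 ± 1.02 CPM per kb in the medulla, and SLC12A7 at 5.65 ± 2.22 and 5.59 ± 0.80 CPM per kb (SD, n = 5). The order of the KCNJ8 group means was dehydrated, rehydrated and control medulla, then dehydrated, rehydrated and control cortex. Neighbours overlapped between dehydrated and rehydrated medulla and among the cortex groups next to each other in this order, while rehydrated and control medulla, and control medulla and dehydrated cortex, did not. For SLC12A7, whose tissues are not ranked against each other, the order was dehydrated, rehydrated and control in the cortex and rehydrated, control and dehydrated in the medulla, in which each group overlapped the next. Among all tested genes the mean CPM per kb of KCNJ8 sat at the 40.2th percentile in the cortex and the 68.0th in the medulla, and that of SLC12A7 at the 51.2th and 44.1th.

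Other genes of potassium transport were read from a list of inward rectifiers and their receptors, other potassium channels, cation-chloride cotransporters, the kinases that regulate them and the sodium pumps. From that list 13 genes with a symbol are described, both members included, and the other 11 were all tested. Symbols came from gene and protein lists that the study drew up from these same tissues, so these 11 are not a neutral sample of the family. The inward rectifiers besides KCNJ8 were represented by KCNJ16, which encodes Kir5.1, a subunit of basolateral tubule channels. KCNJ16 averaged 89.8 ± 40.5 CPM in the control cortex and 85.8 ± 23.9 CPM in the control medulla (SD, n = 5), and its log2 fold change with dehydration was -0.07 in the cortex and -0.28 in the medulla (adjusted p = 0.95 and 0.83). No identifier was matched to the symbol ABCC8 or ABCC9, so neither was analysed by name. Whether a gene without a symbol is one of them was not examined.

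The only other cation-chloride cotransporter described here was SLC12A4, which encodes the widely expressed KCC1. SLC12A4 rose from 27.8 to 42.4 CPM over the 5 control cortex libraries to 44.3 to 60.9 CPM over the 5 dehydrated ones, a log2 fold change of 0.59 ± 0.13 (SE, adjusted p = 0.015). The SLC12A7 value of 0.54 was close in size but had a larger SE, 0.22, and did not pass. SLC12A4 fell by 0.50 on the log2 scale from dehydration to rehydration in the cortex (SE 0.13, adjusted p = 0.043), to 38.2 ± 5.30 CPM. In the medulla its log2 fold change with dehydration was -0.03 (adjusted p = 0.97).

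In the dehydrated cortex 1 of the other 11 list genes was called higher (SLC12A4) and 0 lower, where 2.34% of all tested genes were called. Their median log2 fold change was 0.05 beside 0.003 over all tested genes. In the dehydrated medulla 0 of 11 were called, where 0.969% of all tested genes were, with a median of -0.03 beside 0.01. From dehydration to rehydration in the cortex 0 of 11 rose and 1 fell (SLC12A4), with a median of 0.15 beside 0.03. There 2.15% of all tested genes were called. In the medulla ATP1B3, a beta subunit of the sodium pump named here after its value was seen, fell by 0.66 on the log2 scale with rehydration (adjusted p = 0.022), and 0 of 11 rose. The share called there over all tested genes was 1.99%. Against control, rehydration gave 0 of 11 in either direction in both tissues, beside 0.039% of all tested genes in the cortex and 0.221% in the medulla.

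**Figure D4:**
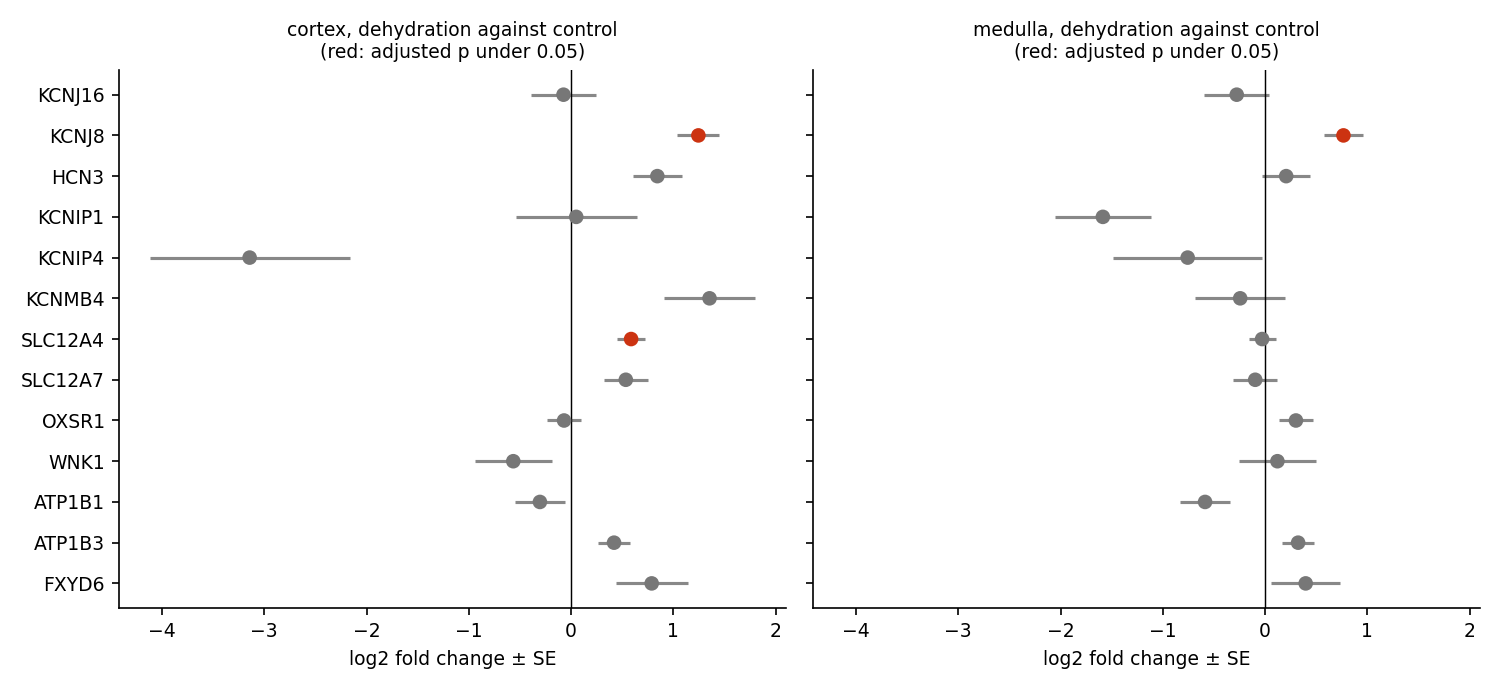
Log2 fold change ± SE (horizontal axis) with dehydration in the cortex on the left and the medulla on the right for the 13 potassium transport genes described (vertical axis), in red where the adjusted p was under 0.05. KCNJ8 (1.25) and SLC12A4 (0.59) passed in the cortex, and KCNJ8 (0.77) in the medulla, while SLC12A7 stood at 0.54 and -0.10.

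Between the tissues 5 of the 11 were called higher in the medulla and 1 lower in control camels, 4 and 1 in dehydrated camels, and 2 and 1 in rehydrated camels. Over all tested genes 59.5%, 63.6% and 58.5% were called in these comparisons, a larger share than of the list in each. The steepest was KCNIP1, a calcium-binding partner of voltage-gated potassium channels, with a log2 fold change of 4.41 in controls, 2.77 in dehydration and 4.36 in rehydration (adjusted p = 3.9e-07, 8.1e-05 and 5.5e-07). Its cortical counts were low, at most 13 in a control, 17 in a dehydrated and 9 in a rehydrated library. KCNJ8 came next among the called list genes in control camels. SLC12A4 was higher in the control and rehydrated medulla by 0.74 and 0.73 (adjusted p = 4.5e-05 and 4.8e-05). In control camels ATP1B1, a beta subunit of the sodium pump, was higher in the medulla by 0.72, its regulator FXYD6 by 1.36 and the pacemaker channel HCN3 by 0.56 (adjusted p = 0.014, 0.0018 and 0.044). The kinase WNK1 was lower there, at -0.92 (adjusted p = 0.037). In dehydrated camels FXYD6 stood at 0.97, KCNIP4 at 2.57, the kinase OXSR1 at 0.56 and KCNMB4, an accessory subunit of calcium-activated potassium channels, at -1.30 (adjusted p = 0.016, 0.023, 0.0040 and 0.013). KCNIP4 was near the floor, with at most 3 counts in a dehydrated cortex library and 22 in a dehydrated medulla library. In rehydrated camels KCNMB4 stood at -1.90 (adjusted p = 0.00084). The sizes of all these differences depend on the choice of TMM. Library sizes alone shift all genes by 0.52 to 0.56 towards the medulla. Under them the genes higher in the medulla would differ more, and those lower there, WNK1 and KCNMB4, would differ less.

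Of the markers of vessel cells, 1 of 4 mural and 1 of 3 endothelial markers rose in the dehydrated cortex, where 2.34% of all tested genes were called. Of 11 mural cell markers 4 had a symbol, namely PDGFRB, NOTCH3, ACTA2 and MCAM, and of 7 endothelial markers 3 did, namely PECAM1, CDH5 and VWF. These symbols too came from gene and protein lists that the study drew up from these same tissues. A marker could enter because it changed here, so neither these markers nor those of other cell types below are a neutral sample. None of the 7 was at 0 in any group. In the dehydrated cortex NOTCH3, a receptor of mural cells, was raised 1.53-fold (adjusted p = 0.034) and PECAM1, an adhesion molecule of endothelium, 1.67-fold (adjusted p = 0.0049), while the other 5 had positive log2 values from 0.14 to 0.59 that did not pass. Both fell again with rehydration, NOTCH3 by 0.59 and PECAM1 by 0.78 (adjusted p = 0.043 and 0.0040). The summed mural level was 219 to 328 CPM in the control, 279 to 586 in the dehydrated and 190 to 270 in the rehydrated cortex. The summed endothelial level was 219 to 269, 356 to 423 and 215 to 276 CPM in the same order. The median log2 fold change in the dehydrated cortex was 0.53 for the mural and 0.39 for the endothelial list, beside 1.25 for KCNJ8. The part of vessel content in the KCNJ8 result was not tested.

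In the medulla no mural marker was called with dehydration, where 0.969% of all tested genes were. Their summed level was 292 to 622 CPM in the control, 248 to 451 in the dehydrated and 333 to 555 in the rehydrated medulla, with a median log2 fold change of -0.28 over the 4 in dehydration. The endothelial sum was 443 to 471, 438 to 695 and 341 to 651 CPM, with 0 of 3 called (median 0.27). Between the tissues, in control camels 4 of 4 mural and 2 of 3 endothelial markers were called higher in the medulla (median log2 fold changes 1.09 and 0.88), where KCNJ8 differed by 2.25 and 59.5% of all tested genes were called. In dehydrated camels, with 63.6% of genes called, 2 of 4 mural markers were higher and ACTA2 was lower (-0.65, adjusted p = 0.039), with a median of 0.45, and 2 of 3 endothelial markers were higher, with a median of 0.47. In rehydrated camels, with 58.5% called, 4 of 4 and 2 of 3 were higher, with medians of 1.06 and 0.91.

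**Figure D5:**
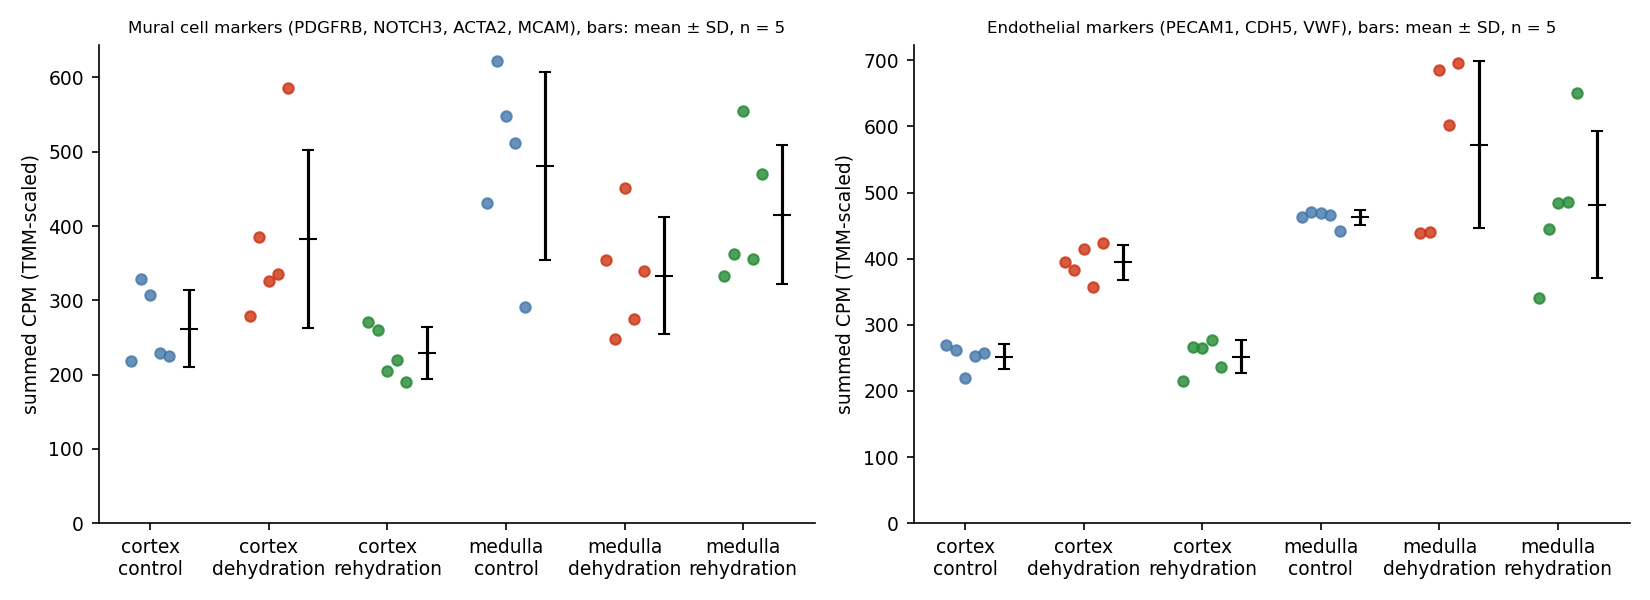
Summed CPM (TMM-scaled, vertical axes from 0) of the 4 mural cell markers on the left and the 3 endothelial markers on the right in each library, by group (horizontal axis), with the mean ± SD of 5 libraries. The endothelial sum in the dehydrated cortex (356 to 423 CPM) lay above that of the control (219 to 269) and rehydrated cortex (215 to 276), and the mural sum of the dehydrated medulla (248 to 451) overlapped that of the control medulla (292 to 622).

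Other marker lists served to check the tissue labels and the tubule. The proximal tubule markers SLC17A3 and SLC22A8 (2 of 8 with a symbol) were lower in the medulla in all 3 conditions, as the labels imply. UMOD, made by the thick ascending limb (1 of 2 with a symbol), was higher there, also as they imply. Of the principal cell markers AQP2 and AQP3 were called higher in the medulla in all 3 conditions. SCNN1A was not called, at -0.14 in control, -0.44 in dehydrated and -0.27 in rehydrated camels. Between the tissues 58.5% to 63.6% of all tested genes were called. In the dehydrated cortex SLC17A3 fell by 2.63 on the log2 scale (adjusted p = 0.0065), and in the dehydrated medulla it was also called lower, at -2.50 (adjusted p = 0.017). SLC22A8 stood at -1.61 in the cortex and -1.92 in the medulla (adjusted p = 0.19 and 0.18). UMOD stood at 0.73 and -0.28 in the same order (adjusted p = 0.052 and 0.69). Of the intercalated cell markers, which bear on SLC12A7, 2 of 6 had a symbol. ATP6V1B1, a subunit of the proton pump, fell in the dehydrated medulla by 0.82 on the log2 scale (adjusted p = 0.0065) and stood at -0.42 in the dehydrated cortex (adjusted p = 0.18), and ATP6V0A4 had 0.03 and -0.00085 (adjusted p = 0.98 and 1). Of the 3 principal cell markers 1 was called with dehydration in each tissue, where 2.34% of all tested genes were called in the cortex and 0.969% in the medulla. The water channel AQP3 rose in the dehydrated cortex (log2 fold change 2.35, adjusted p = 0.019) and stood at 1.37 in the dehydrated medulla (adjusted p = 0.26). SCNN1A, a subunit of the epithelial sodium channel, stood at -0.59 in the dehydrated cortex (adjusted p = 0.14) and fell in the dehydrated medulla by 0.89 (adjusted p = 0.031), and the water channel AQP2 stood at 0.22 and 0.81 (adjusted p = 0.74 and 0.075). Their summed level was 585 to 852 CPM in the control and 515 to 661 CPM in the dehydrated cortex, and 542 to 1066 and 602 to 1415 CPM in the medulla. Distal convoluted tubule (CALB1), fibroblast (COL1A1 and COL3A1) and red cell (HBB) markers had no call with dehydration in either tissue. The renin and podocyte lists had no gene with a symbol. The part of these cell types in the values of KCNJ8 and SLC12A7 was not tested.

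The genes whose level followed each member most closely were found by Pearson's r of log2 CPM over the 30 libraries after the mean of each tissue was removed, among 3695 genes with a symbol and a mean of at least 1 CPM. The libraries share camels and depth, so r is a description. For KCNJ8 the 5 highest were AMPD2 (r = 0.78), an AMP deaminase, CACNB3 (0.78), a calcium channel subunit, FAM89B (0.78), PIP4K2B (0.77), a phosphoinositide kinase, and CPA6 (0.76), a carboxypeptidase. Their log2 fold changes in the dehydrated cortex were 1.15, 1.08, 0.71, 0.49 and 3.36, which the way they were chosen favours, since differences between conditions were left in, and which are therefore no further result. Once the mean of each of the 6 groups was removed, r fell to between 0.31 and 0.57.

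For SLC12A7 the 5 highest were SF3A2 (r = 0.85), a splicing factor subunit, MAP2K2 (0.85), a kinase of the ERK pathway, PCID2 (0.84), UCKL1 (0.83), a uridine kinase, and DDAH2 (0.83). Their log2 fold changes in the dehydrated cortex were 0.24 to 0.65. With the group means removed r was 0.80 to 0.90. Over all tested genes 1008 (6.56%) had an r of at least 0.7 with SLC12A7 after the group means were removed, against 0 of 15375 for KCNJ8. The spread of SLC12A7 among camels of 1 condition was thus shared by those genes. The same count was not made for other genes, so whether this share is large is not known. The part of low cortical counts in the KCNJ8 value was not tested. Between the members themselves r was 0.26 after the tissue means and -0.12 after the group means were removed.

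The neighbours on the chromosome had no symbol, and which genes they are was not examined. The gene before KCNJ8, ENSCDRG00005018635, ends 68189 bases away and was abundant, at 2136 ± 190 CPM in the control and 2471 ± 212 CPM in the dehydrated cortex (SD, n = 5, adjusted p = 0.52). The gene after it, ENSCDRG00005018701, starts 15383 bases away. It was nearly silent in the control cortex, at 0.49 ± 0.52 CPM, and stood at 8.61 ± 3.19 CPM in the control medulla (SD, n = 5, log2 fold change 4.05, adjusted p = 1.2e-05). With dehydration it had log2 fold changes of 1.02 ± 0.68 in the cortex and 0.86 ± 0.54 in the medulla (SE, adjusted p = 0.53 and 0.60), so it was higher in the medulla, as KCNJ8 was, while its response did not pass. Of the neighbours of SLC12A7, ENSCDRG00005007738 had too few reads to be tested, and ENSCDRG00005013068 differed with dehydration by 0.33 in the cortex and 0.23 in the medulla (log2 scale, adjusted p = 0.84 and 0.92).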

How the data were processed

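RNA of renal cortex and medulla was sequenced after poly-A selection, in 30 libraries. The deposited table holds raw counts of read pairs per gene. Per the file headers the authors made these counts with featureCounts 1.6.2 on the reverse strand against the CamDro2 annotation of Ensembl release 100. The exon length is also deposited. Reads shared between near-identical genes are not settled by such counts. The labels name DESeq2 1.31.18.

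From the counts, genes were kept by edgeR's filterByExpr (minimum count 10, minimum total 15), leaving 15376 of 22444. Libraries were scaled with TMM, and 6 groups were fitted together with the quasi-likelihood test of edgeR 4.0.16 (R 4.3.3), with Benjamini-Hochberg adjustment over all genes tested and a threshold of 0.05. Log2 CPM used a prior count of 2. Exact permutation tests enumerated 252 arrangements, and their p is unadjusted. Intervals have a level of 95%. On simulated data the fit was checked first. Alternatives were DESeq2 1.42.0, limma-voom (limma 3.58.1), other scalings, filters, libraries and covariates. The per-library RNA integrity numbers of that covariate came from the study's supplement.

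Symbols were matched for 3792 identifiers, through the study's lists of changed genes and detected proteins and through RefSeq gene numbers. Genes were named by rule: every KCNJ, ABCC8, ABCC9 and SLC12 gene with a symbol, any other potassium list gene passing where a member passed, the 5 genes most like each member, and the chromosomal neighbours. ATP1B3 falls outside this rule. Of the potassium list 3 genes are not reported here and are left out of its counts. The members, lists and tests were chosen with earlier results of these data known.

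Labels give cortex and medulla libraries of a camel the same number. Deviations from the group means of same-numbered cortex and medulla libraries correlated by 0.14 on average in control, 0.09 in dehydrated and 0.05 in rehydrated camels. Rehydrated cortex libraries carry a second name with another number, and by that name 4 pairs averaged 0.35, so the pairing of rehydrated camels is in doubt. The control and dehydrated averages lay within the -0.05 to 0.21 found between same-numbered libraries of different conditions. The pairing of those camels therefore rests on the labels alone.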

Additional observations from a re-analysis of the deposited data

Results flagged for a closer look

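The fourth control medulla stood apart for SLC12A7, at 25.3 CPM against 33.9 to 37.2 CPM in the other 4, a gap of 0.720 of the group's range and beyond Dixon's critical value for 5 samples. Chance flags about 1 group in 20, and 12 groups were examined.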

How the results depend on the processing

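For the 22 comparisons of KCNJ8 and SLC12A7, 498 values under other settings were computed, of which 435 kept their direction and their side of the threshold. In 16 a call was lost, in 3 one was gained and in 44 the sign changed, the sign changes all in differences near 0 that were not called under TMM. Counted among the sign changes is the SLC12A7 tissue difference with library sizes alone, which passed in control and rehydrated camels (adjusted p = 0.019 and 0.015 by edgeR). For KCNJ8 in the medulla, dehydration against control, the call was lost in the fits named beside it (log2 fold change 0.77 with no filter, 0.71 with the RNA integrity number, 0.70 to 0.84 without 1 library). The call for KCNJ8 in the cortex, rehydration against dehydration, was lost with fewer libraries fitted (-1.04 with that tissue only, -1.03 with those groups only). For KCNJ8 in the medulla a call was gained for rehydration against dehydration in the medulla alone (-0.47) and by the exact permutation test (-0.43), and by that test for rehydration against control (0.33). The p of the exact test is unadjusted, so its gains are not calls on the same measure. The SLC12A7 tissue difference in dehydrated camels lost its call with library sizes alone (-0.094), a setting chosen after seeing the data, and with the RNA integrity number (-0.59). Why these calls moved was not tested.

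The sign of the SLC12A7 tissue difference in control camels turned to 0.035 with DESeq2, 0.085 with limma-voom, 0.034 with DESeq2 size factors, 0.53 with library sizes alone, 0.0054 with no filter, 0.0012 with the RNA integrity number and 0.058 by the exact test, and ran from -0.15 to 0.20 without 1 library. In rehydrated camels it turned to 0.042 with DESeq2, 0.049 with limma-voom, 0.041 with DESeq2 size factors, 0.55 with library sizes alone, 0.034 with the RNA integrity number and 0.046 by the exact test, and ran from -0.15 to 0.12. The SLC12A7 rehydration response, medulla minus cortex, turned to 0.0073 with DESeq2, 0.0077 with its size factors, 0.020 with library sizes and 0.032 with the RNA integrity number, and ran from -0.22 to 0.13. That of KCNJ8 ran from -0.025 to 0.27.

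Replicate numbers did not pair camels of different conditions: the mean correlation of same-numbered deviations was -0.05 to 0.08 in the cortex and -0.05 to 0.21 in the medulla, and with the replicate block on that number KCNJ8 in the dehydrated medulla had a log2 fold change of 0.75 (adjusted p = 0.063), the only one of 12 condition comparisons whose call changed. With the replicate block on the camel no call of the 10 tissue comparisons changed. The SLC12A7 tissue difference was then 0.056 in control and 0.043 in rehydrated camels, and 0.056 and 0.19 with rehydrated camels paired by second name, where its rehydration response was 0.13. Scaling by library sizes alone moved the mean CPM of KCNJ8 and SLC12A7 in every medulla group by more than 1 SD. In the cortex KCNJ8 rests on few counts, which limits its precision.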
